A study of Mus musculus with 18 samples.

Results

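Rbm3 and Cirbp encode 2 small RNA-binding proteins, and both genes were measured in mouse small intestinal organoids stimulated with an adrenergic receptor agonist. They are the 2 rows, of 55487 gene rows counted, whose identifiers carry these names (ENSMUSG00000031167 for Rbm3 and ENSMUSG00000045193 for Cirbp), and both were among the 15247 genes that passed the filter on low counts. The pair was selected on its values in these same comparisons, in which Rbm3 was among the genes that differed most clearly with UK14304, so its levels and fold changes are given as a description and no test is read from them. The organoids, 3-dimensional cultures grown from intestinal crypts, came from wild-type female C57BL/6 mice (genotype label WT) and, after several passages in Matrigel, were stimulated for 4 days with 1 μM norepinephrine (NE, 5 samples), which acts on α- and β-adrenergic receptors, or with 1 μM of the α2-adrenergic agonist UK14304 (UK, 5 samples). The vehicle control was HCl for norepinephrine (4 samples) and DMSO for UK14304 (4 samples), and replicate numbers 1 to 4 occur in all 4 groups while number 5 occurs with the agonists only. Each library held 21.87 to 27.85 M counted reads. The sources used here do not say whether equal replicate numbers stand for 1 mouse, or whether the cultures of a group were independent, so the errors below measure the spread between these samples. The epithelial markers Epcam, Cdh1, Krt8, Krt18, Vil1 and Cdx2 were detected in every library, with a summed level of 5650 to 6240 CPM (counts per 1e6 counted reads, with library sizes scaled by edgeR's TMM method). No library had more than 5 counts on any of the 4 fibroblast and smooth muscle markers.

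RBM3 and CIRBP share a structure, an RNA recognition motif at the amino terminus followed by a tail rich in arginine and glycine, and they are best known as cold-shock proteins: mild cooling of mammalian cells raises their amounts, and warming lowers them. They bind many mRNAs and have been linked to the choice of polyadenylation sites, to splicing, to translation and to the amplitude of the circadian clock. The daily body temperature rhythm is one route by which their levels cycle in tissues. CIRBP, which is also called A18 hnRNP, is induced by ultraviolet light and hypoxia as well. A change of temperature during the stimulation was not part of the design as the labels and methods describe it.

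The start of the coding sequence, which holds most of the RNA recognition motif, shows how near the 2 genes are to each other and how much nearer Rbm3 is to its own processed copies. The first 240 coding bases of transcripts Rbm3-204 and Cirbp-202 (GENCODE M21, GRCm38, 5′ to 3′) are given with the bases that differ between the pair in capitals. The same stretch of the processed pseudogene Rbm3-ps (chromosome 1, 150265535 to 150265999, minus strand) follows, with the base that differs from Rbm3 in capitals.
Rbm3: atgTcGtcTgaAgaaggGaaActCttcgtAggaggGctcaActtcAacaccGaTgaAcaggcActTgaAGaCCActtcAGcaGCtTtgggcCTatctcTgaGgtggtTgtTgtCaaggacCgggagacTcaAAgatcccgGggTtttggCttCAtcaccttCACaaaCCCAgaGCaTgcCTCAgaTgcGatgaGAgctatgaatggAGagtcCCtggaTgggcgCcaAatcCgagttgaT
Cirbp: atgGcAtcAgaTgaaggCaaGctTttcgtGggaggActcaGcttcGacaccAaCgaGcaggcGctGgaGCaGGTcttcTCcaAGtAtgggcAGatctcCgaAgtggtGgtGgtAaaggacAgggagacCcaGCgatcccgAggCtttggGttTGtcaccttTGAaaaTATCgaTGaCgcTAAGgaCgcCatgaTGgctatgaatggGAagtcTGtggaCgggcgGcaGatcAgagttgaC
Rbm3-ps: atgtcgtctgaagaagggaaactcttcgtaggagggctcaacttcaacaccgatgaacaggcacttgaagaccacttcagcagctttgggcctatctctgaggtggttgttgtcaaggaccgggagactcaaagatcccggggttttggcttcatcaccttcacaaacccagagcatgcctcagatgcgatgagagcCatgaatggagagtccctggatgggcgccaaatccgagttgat
Rbm3 and Cirbp were alike at 171 of these 240 bases (71.2%), with differences spread along the whole stretch, and the longest run that any of their transcripts shared was 11 bases. A read of 50 bases from one gene could therefore not be counted on the other. Rbm3 and Rbm3-ps were alike at 239 of the 240 bases.

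Rbm3 lies on chromosome X from 8138975 to 8145880 (GRCm38, minus strand). Transcript Rbm3-204, one of several annotated as principal, has 1152 bases in 7 exons, of which 462 bases code for 154 amino acids. A search among all GENCODE M21 transcripts found 7 other genes with a match to Rbm3 of at least 50 bases at 95% identity or more. Of these, 4 are processed pseudogenes, namely Rbm3-ps, Gm10156, Gm13624 and Gm48583, and the closest, Rbm3-ps, was 99.4% identical over 465 bases. For Cirbp, which lies on chromosome 10 from 80165985 to 80172786 (plus strand) and whose transcript Cirbp-202 has 1321 bases with 516 coding bases for 172 amino acids, the search found none. Of all windows of 50 bases, the read length, 36% in Rbm3-204 and 87.9% of those within its coding part were found letter for letter in a transcript of another gene, against 0% in Cirbp-202. The counting command left out reads that mapped to several places or lay over several genes. How many reads of the coding part of Rbm3 were left out in this way was not measured, and the counts do not show where in the gene the counted reads lie.

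**Figure D1:**
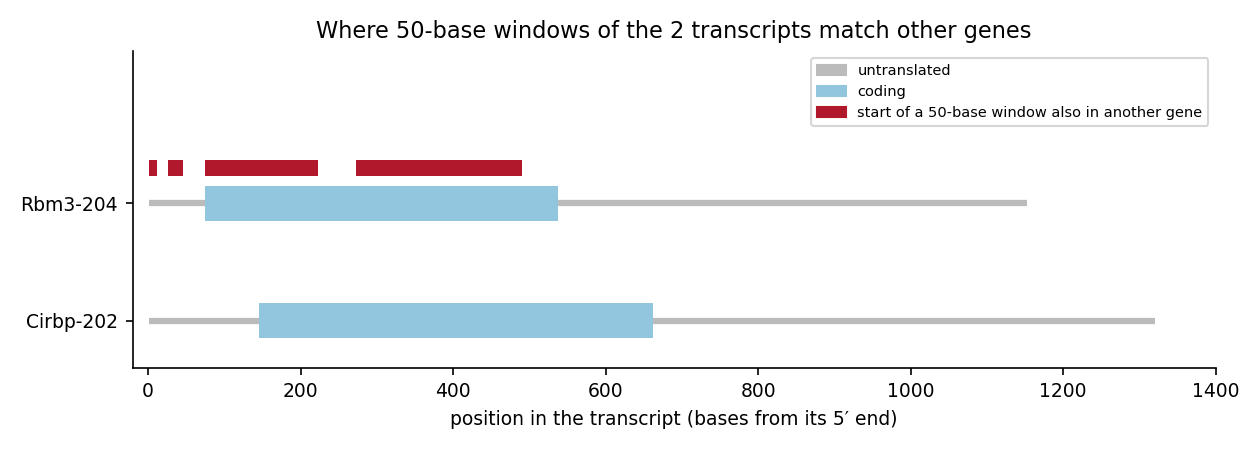
Map of transcripts Rbm3-204 and Cirbp-202, with the position in bases from the 5′ end on the x axis, the coding part in blue, untranslated parts in grey, and in red the starts of the 50-base windows that also occur in another gene. In Rbm3-204 these starts cover 36% of the windows and lie in and just before the coding part. Cirbp-202 has 0 of them.

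The processed pseudogenes among the near copies held few counted reads. Reads that mapped to several places were left out here too, so these counts do not show how many reads came from the copies. Rbm3-ps had 1 to 7 counts per library, Gm10156 and Gm13624 0 to 3 each and Gm48583 0 to 1, so that the 18 libraries together gave Rbm3-ps 62 counts, 0.354% of those of Rbm3. Phospho2, a phosphatase gene on chromosome 2 whose annotation runs over the Gm13624 copy on the opposite strand, had 518 to 819 counts per library and a log2 fold change of 0.10 ± 0.0853 (standard error, SE) with UK14304 (adjusted p = 0.644, edgeR's quasi-likelihood test). Rbm3os, an antisense gene that overlaps the start of Rbm3, had 6 to 23 counts per library and a log2 fold change of 0.32 ± 0.363 (adjusted p = 0.747, edgeR). AC132402.1 had 0 counts throughout. The counting did not use strand, so reads over exons of both Rbm3 and Rbm3os could not be told apart and were left out.

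In the 13 libraries without UK14304, Rbm3 was counted at 39.3 to 47.1 CPM, and in the 5 with it at 30.1 to 34.4 CPM. With HCl vehicle, Rbm3 had 41.9, 42.8, 45.5 and 41.2 CPM in replicates 1 to 4. With norepinephrine it had 39.3, 40.6, 46.3, 40.2 and 40.7 CPM in replicates 1 to 5. These 2 groups overlapped nearly whole, and in both the highest library was replicate 3. With DMSO vehicle, Rbm3 had 43, 41.5, 47.1 and 41.9 CPM in replicates 1 to 4. With UK14304 it had 32.8, 30.1, 34.4, 30.3 and 32.4 CPM in replicates 1 to 5. All 5 UK14304 libraries lay below all 4 of their vehicle, and below the libraries of the other 2 groups, and replicate 3 was again the highest of each group. How many of all tested genes separate these groups, or agree in every pair, was not counted. In bulk samples, fewer cells that hold an mRNA and less of it per cell cannot be told apart.

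**Figure D2:**
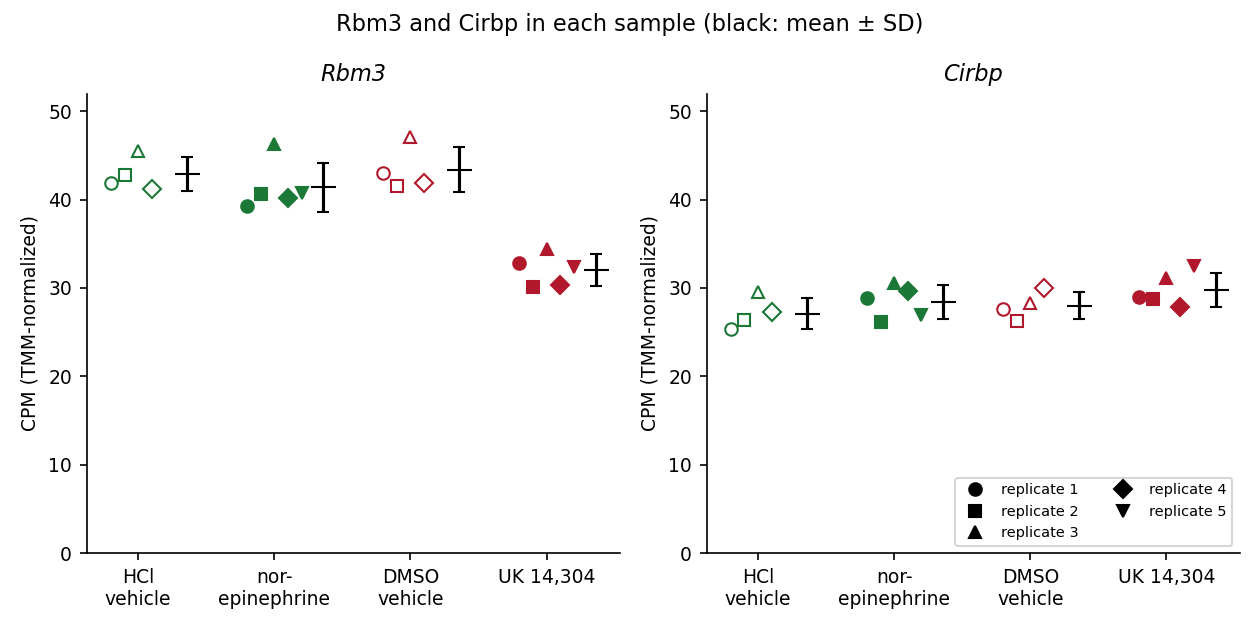
Rbm3 (left) and Cirbp (right) in the 18 libraries, in CPM on a linear y axis that starts at 0, by group on the x axis, with open symbols for vehicle, filled symbols for agonist, a symbol shape for each replicate number, and the mean ± SD in black. The 5 UK14304 libraries have Rbm3 at 30.1 to 34.4 CPM, under the 39.3 to 47.1 CPM of the other 13, whereas the Cirbp groups overlap.

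By group, Rbm3 averaged 43.4 ± 2.58 CPM in the DMSO vehicle libraries (SD, n = 4) and 42.9 ± 1.89 CPM in those with HCl (SD, n = 4). Its mean was 41.4 ± 2.79 CPM under norepinephrine (SD, n = 5) and 32 ± 1.8 CPM under UK14304 (SD, n = 5). In this order the first 3 levels did not differ beyond their spread, and the step from norepinephrine to UK14304 was without overlap. The spread between libraries of a group, 4.42% to 6.74% of the mean, was somewhat more than the 3.02% to 3.49% that counting alone gives at 750 to 1222 counts per library. Cirbp averaged 27.1 ± 1.77 CPM in the HCl libraries (SD, n = 4) and 28 ± 1.52 CPM in those with DMSO (SD, n = 4). Its mean was 28.4 ± 1.89 CPM under norepinephrine (SD, n = 5) and 29.8 ± 1.94 CPM under UK14304 (SD, n = 5), and each pair of neighbours in this order overlapped. Its counts were 569 to 800 per library. Cirbp had 25.4, 26.4, 29.5 and 27.3 CPM with HCl vehicle and 28.9, 26.1, 30.6, 29.7 and 26.9 CPM with norepinephrine, in the order of the replicate numbers. It had 27.6, 26.3, 28.3 and 30 CPM with DMSO vehicle and 29, 28.7, 31.1, 27.8 and 32.5 CPM with UK14304. The lowest UK14304 library of Cirbp was below 2 of the 4 vehicle libraries, and no group stood apart.

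Both genes were expressed at a middling level, with 63.2% of the tested genes below Rbm3 and 55.9% below Cirbp by mean CPM. Which of them is the more abundant depends on the length used. Per kilobase of merged exons (4698 bases for Rbm3 and 2604 for Cirbp, all annotated transcripts together), Rbm3 had a level of 9.24 ± 0.549 CPM and Cirbp of 10.8 ± 0.585 with DMSO vehicle (SD, n = 4). Per kilobase of the transcripts described above, the levels were 37.7 ± 2.24 and 21.2 ± 1.15. Any Rbm3 reads left out for their match to other genes would lower its level per length, by an amount the counts do not give.

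Against its own vehicle, UK14304 went with less Rbm3, at a log2 fold change of -0.44 ± 0.0572 (SE), or 0.737 times the DMSO level. For norepinephrine the value was -0.05 ± 0.0572, or 0.967 times the HCl level. The difference between the agonist effects (UK minus NE) was -0.39 ± 0.081 on the log2 scale. Cirbp had log2 fold changes of 0.09 ± 0.063 with UK14304 and 0.07 ± 0.0635 with norepinephrine, each within 1.5 SE of 0, and a difference between them of 0.02 ± 0.0894. Between the vehicles, HCl against DMSO, Rbm3 had -0.02 ± 0.0601 and Cirbp -0.05 ± 0.0668.

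Within replicate numbers, Rbm3 was lower with UK14304 than with DMSO vehicle in 4 of 4 pairs, at differences in log2 CPM of -0.39, -0.46, -0.45 and -0.47 for replicates 1 to 4 (mean -0.44, SD 0.0359). The high level of replicate 3 was thus present in vehicle and agonist alike. Against norepinephrine of the same number, Rbm3 was lower with UK14304 in 5 of 5 pairs, at -0.26, -0.43, -0.43, -0.41 and -0.33. This comparison sets an agonist in DMSO against one in HCl. Norepinephrine against HCl vehicle gave -0.09, -0.08, 0.03 and -0.03, lower in 3 of 4 pairs. Subtracting this from the UK14304 value of the same number left -0.3, -0.38, -0.48 and -0.44. For Cirbp the UK14304 differences were 0.07, 0.13, 0.14 and -0.11, higher in 3 of 4 pairs, and those under norepinephrine were 0.19, -0.01, 0.05 and 0.12. The differences between the agonist effects of Cirbp were -0.12, 0.14, 0.09 and -0.23, of which 2 were above 0 and 2 below.

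**Figure D3:**
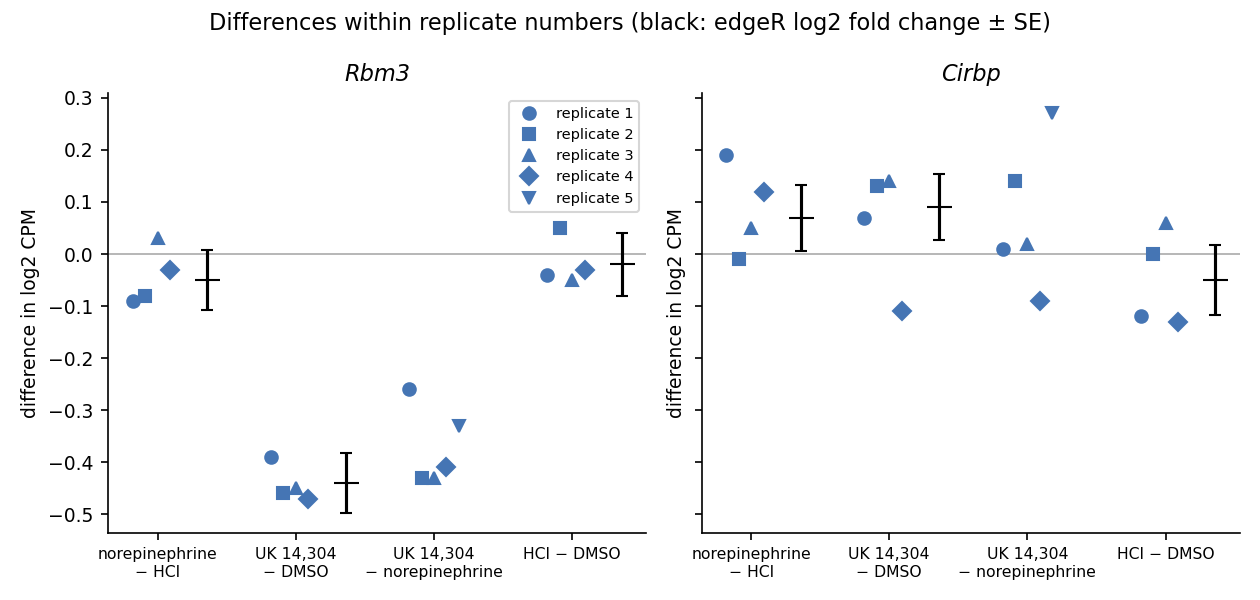
Differences in log2 CPM between samples of the same replicate number (y axis) for 4 comparisons (x axis), with Rbm3 on the left and Cirbp on the right. Blue symbols are single pairs and black marks are edgeR's log2 fold change ± SE over all samples, which was not fitted for UK14304 against norepinephrine. The 4 Rbm3 pairs of UK14304 and DMSO lie between -0.47 and -0.39, and no Cirbp comparison has every pair on one side of 0.

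The ratio of Rbm3 to Cirbp within a library needs no scaling between libraries. It was 1.4 to 1.66 with DMSO vehicle, 1.51 to 1.65 with HCl vehicle, 1.35 to 1.56 with norepinephrine and 0.996 to 1.13 with UK14304. The means were 1.55 ± 0.11 (SD, n = 4), 1.58 ± 0.0673 (SD, n = 4), 1.46 ± 0.0936 (SD, n = 5) and 1.07 ± 0.0522 (SD, n = 5), in the same order. The UK14304 libraries did not overlap the others, and in replicate 5 the ratio was slightly under 1. The ratio holds the same Rbm3 values on which the pair was chosen, so it is not a separate result. After each group's mean was removed, the log2 CPM of the 2 genes correlated over the 18 libraries with Pearson's r = 0.531 and Spearman's rho = 0.465, where libraries of the same replicate number tended to deviate together. With the group means left in, r was -0.276 and rho -0.201.

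Over all tested genes, 6 had an adjusted p under 0.05 for UK14304 against DMSO vehicle (0.0394% of 15247, edgeR), and Rbm3 was 1 of them, as the choice of the pair fixed. With the replicate number as a block in the model the count was 186 (1.22%), Rbm3 included, and Cirbp was in neither count. For norepinephrine against HCl vehicle, 0 genes passed in edgeR (0%), with 943 at an unadjusted p under 0.05 and 0 in DESeq2, and 16 passed with the block (0.105%), neither of the pair among them. In the difference between the agonist effects, edgeR called 0 genes without the block (0%) and 0 with it (0%), with 230 and 405 genes at an unadjusted p under 0.05. DESeq2 called 0 without the block and 1 with it, and that gene was Rbm3. The pair was chosen on this comparison too, so no test is read from that call. The longest annotated transcript of Rbm3 has a GC content of 41.5%, lower than that of most tested genes (10.9% were below it), against 53.7% for that of Cirbp. With the block, and with each library's trend of log2 CPM against GC content removed, Rbm3 had -0.51 ± 0.064 under UK14304 and -0.12 ± 0.0636 under norepinephrine. By the size of the fold change alone, 531 tested genes had a lower value than Rbm3 with UK14304, and 5510 had a lower value with norepinephrine. The block left the log2 fold changes of Rbm3 at -0.44 ± 0.0433 and -0.05 ± 0.0431.

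Ribosomal RNA carry-over, read from the gene CT010467.1, split the libraries into 7 with 1.83% to 3.06% of their counts on it and 11 with 0.313% to 0.619%. The higher share occurred in 3 of 4 DMSO libraries and 1 of 5 UK14304 libraries, so it moved with this comparison. Among libraries of the lower share, Rbm3 had 30.1 to 34.4 CPM in 4 UK14304 libraries and 41.9 CPM in the single DMSO library. Among those of the higher share, it had 32.8 CPM in the single UK14304 library and 41.5 to 47.1 CPM in the 3 DMSO libraries. Apart from UK14304, Rbm3 had 40.2 to 47.1 CPM in the 6 libraries of the higher share and 39.3 to 46.3 CPM in the 7 of the lower. With only the lower-share libraries fitted, an alternative chosen after seeing the data, Rbm3 had a log2 fold change of -0.40 ± 0.101 with UK14304 and Cirbp of 0.00 ± 0.117.

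**Figure D4:**
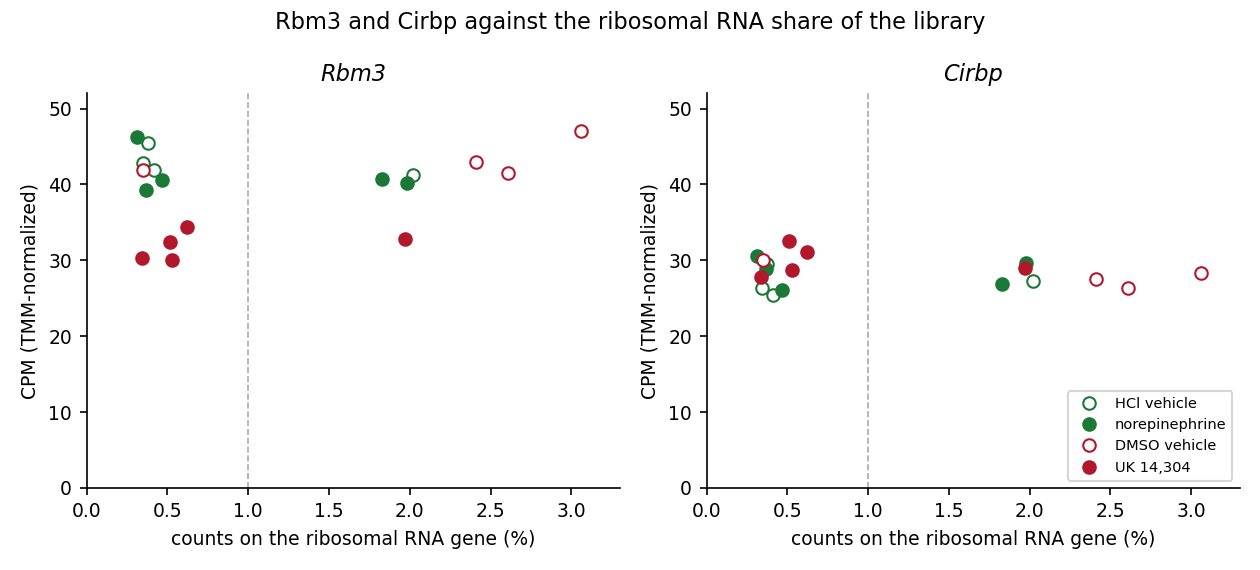
Rbm3 (left) and Cirbp (right) in CPM (y axis, from 0) against the percentage of each library's counts on the ribosomal RNA gene (x axis), 1 point per library, open for vehicle and filled for agonist, green for HCl and norepinephrine and red for DMSO and UK14304; the dashed line is at 1%. On both sides of the line the UK14304 libraries have less Rbm3 than the others, 32.8 CPM at most on the right and 34.4 CPM at most on the left.

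Markers of epithelial cell types also varied between libraries. Each marker list was summed in CPM, so its most abundant gene weighed most. With DMSO vehicle, Olfm4 of the stem cell list averaged 3460 CPM, against 332 for Smoc2, the next highest. In the enteroendocrine list, Chgb averaged 317 CPM, against 69.5 for Chga. With the group means removed, the log2 CPM of Rbm3 correlated over the 18 libraries with 12 summed marker lists at r of -0.829 (enteroendocrine cells) to 0.666 (stem cells). Between these lay the enterocyte (-0.686), goblet cell (-0.561), proliferation (0.517) and Paneth cell (0.563) lists, and the other 6 lists were at -0.288 to 0.236. For single genes the 5th and 95th percentiles of r with Rbm3 were -0.712 and 0.633. The proliferation sum was 1640 to 1770 CPM with DMSO vehicle and 1770 to 2010 CPM with UK14304, so that the groups met only at their edge, and 0 of its 4 genes passed with or without the block. Among these genes the log2 fold change was 0.18 ± 0.0558 for Mki67 (adjusted p = 0.346, edgeR), 0.17 ± 0.0634 for Top2a (adjusted p = 0.389, edgeR), 0.08 ± 0.0456 for Mcm6 and -0.08 ± 0.0356 for Pcna. The stem cell sum was 2980 to 5110 CPM with DMSO vehicle and 3620 to 5560 CPM with UK14304, the enteroendocrine sum 327 to 452 and 325 to 422 CPM, and the Paneth cell sum 2220 to 3420 and 1940 to 2880 CPM, all with overlap. With the block, 2 of 4 Paneth cell genes (Lyz1 and Ang4) and 1 of 4 goblet cell genes (Agr2, adjusted p = 0.0324, edgeR) passed, all lower with UK14304, and 0 of them passed without it. Lyz1, Ang4 and Agr2 had log2 fold changes of -0.29, -0.28 and -0.18 with UK14304 and -0.35, -0.3 and -0.18 with norepinephrine. Lyz1 also passed for norepinephrine with the block (adjusted p = 0.0019, edgeR). Muc2 of the goblet cell list had 0.1 ± 0.0996 with UK14304. The part of these cell types in the Rbm3 difference was not tested.

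Cooling and warming act on a wider set of genes, and 5 lists of such genes, 73 genes in all of which 65 were tested, were set beside the pair. They were chosen with results of these data known. Of the 65, 0 passed in either agonist comparison or in the difference between them (edgeR, adjusted over all tested genes), and with the block 2 passed for UK14304 (3.08%, against 1.22% of all tested genes) and 0 for norepinephrine. The median log2 fold change of the 65 was 0.03 with UK14304 and 0.02 with norepinephrine, near the -0.004 and -0.008 of all tested genes, and 1 of them was as low as Rbm3 with UK14304. Of all tested genes, 51.3% had a value below 0 with UK14304 and 52.4% with norepinephrine, beside which the counts of values above 0 below can be set.

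The nearest relatives of the pair and the cold shock domain proteins, a separate family of RNA- and DNA-binding proteins, had 7 tested members with log2 fold changes of -0.11 to 0.04 with UK14304, a narrow range around 0 beside the value of Rbm3. The largest were those of Ybx2 (-0.11 ± 0.196), Carhsp1 (-0.09 ± 0.0426, adjusted p = 0.444, edgeR) and Ybx3 (-0.08 ± 0.0435), and Rbmx, which has the same kind of RNA recognition motif, had 0.04 ± 0.0459. Rbmxl2, Lin28a and Lin28b did not pass the filter.

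The second list held kinases and splicing factors through which body temperature acts on splicing. The CLK kinases phosphorylate SR proteins and are more active in cooler cells. Of its 19 tested genes, 16 had a value above 0 with each agonist, at medians of 0.07 with UK14304 and 0.08 with norepinephrine, and none passed with or without the block. Tra2b, a splicing activator, had the largest value (0.23 ± 0.104, adjusted p = 0.434, edgeR), followed by Srsf10, an SR protein that mediates the heat shock effect on splicing (0.22 ± 0.107, adjusted p = 0.447, edgeR), and Srsf6 (0.15 ± 0.0521, adjusted p = 0.375, edgeR). Clk1 had -0.05 ± 0.0589 and Clk4 0.02 ± 0.0521.

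Heat shock genes answer to warming through the transcription factor HSF1. Of the 18 tested, 0 passed with or without the block, and calls under other models are given at the end. With UK14304 13 had a value above 0 and with norepinephrine 9, and the values ran from -0.11 to 0.23 and from -0.22 to 0.24. Chordc1, an HSP90 co-chaperone, had 0.23 ± 0.0881 (adjusted p = 0.395, edgeR), Dnaja1, an HSP40 family co-chaperone, 0.22 ± 0.0634 (adjusted p = 0.31, edgeR) and Hsf2, a second heat shock factor, 0.20 ± 0.103 (adjusted p = 0.46, edgeR). The strongly inducible Hspa1b had only 1.8 to 2.14 CPM as group means and a log2 fold change of -0.11 ± 0.186, and Hspa1a, Hspb1 and Cryab were under the filter.

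Among genes reported as regulators or mRNA targets of the pair, 8 of 10 were tested and 0 passed with or without the block. The largest values with UK14304 were those of Tert, the reverse transcriptase of telomerase (0.26 ± 0.111, adjusted p = 0.408, edgeR), Hif1a, the hypoxia-inducible transcription factor (0.23 ± 0.0807, adjusted p = 0.382, edgeR), and Clock (0.11 ± 0.078, adjusted p = 0.562, edgeR). Sp1, a general transcription factor, had 0.09 ± 0.0613. Ntrk2 and Trpv4, a receptor for neurotrophins and a warmth-gated channel, were under the filter.

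The circadian clock list, which CIRBP and RBM3 are reported to act on, held the 2 genes that passed. Dbp and Tef are transcription factors of the PAR bZIP family that carry the clock's rhythm to its output genes. Dbp had 6.65, 8.03, 6.98 and 6.66 CPM with DMSO vehicle and 4.9, 4.66, 3.97, 4.4 and 5.79 CPM with UK14304, without overlap, at a log2 fold change of -0.58 ± 0.118 (adjusted p = 0.0862 in edgeR, 0.0192 with the block). Tef had 56.9, 57, 56.9 and 54.7 CPM with DMSO vehicle and 48.2, 44.2, 42.4, 47.3 and 52.3 CPM with UK14304, also without overlap, at -0.27 ± 0.0506 (adjusted p = 0.0592, 0.00657 with the block). Both were lower in 4 of 4 pairs, as were Cry1, Cry2, Per1, Per3, Nr1d1 and Bhlhe40 of this list. How many of all tested genes were lower in every pair, or without overlap, was not counted. Of its 14 genes, 4 had a log2 fold change above 0 with UK14304. With norepinephrine the values of Dbp and Tef were -0.10 ± 0.118 and -0.03 ± 0.0507. Within groups the log2 CPM of Rbm3 had r = -0.248 with Dbp and 0.108 with Tef over the 18 libraries. Among the other 12 genes, Hlf, a relative of Dbp and Tef, had the largest value (0.67 ± 0.467, adjusted p = 0.566, edgeR) at under 1 CPM, Per1 had -0.25 ± 0.0901 (adjusted p = 0.381, 0.0572 with the block) and Nr1d1 -0.20 ± 0.0968 (adjusted p = 0.453). The core activator Arntl had 0.13 ± 0.0551 (adjusted p = 0.407, edgeR).

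**Figure D5:**
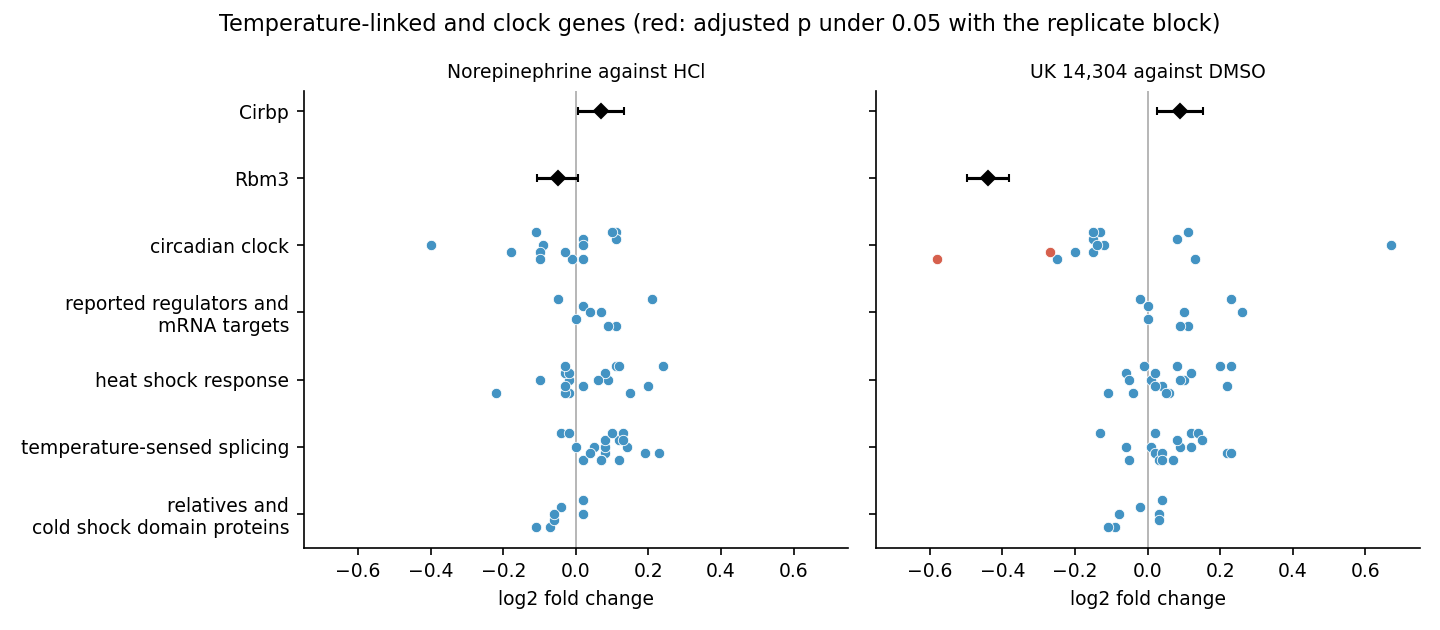
log2 fold change (x axis) of the tested genes of the 5 lists (y axis, 1 point per gene, shifted up or down for visibility) and of Rbm3 and Cirbp (black diamonds ± SE), for norepinephrine against HCl (left) and UK14304 against DMSO (right). Only Dbp and Tef are red, which marks an adjusted p under 0.05 in edgeR with the replicate block, and with UK14304 only Dbp (-0.58) lies below Rbm3 (-0.44).

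No neighbour of either gene passed the test. Of the 8 other tested genes within 100 kb of Rbm3, 0 passed with or without the block. Wdr13, a WD repeat protein gene whose end is 6083 bases away, had a log2 fold change of 0.00 ± 0.0465 with UK14304, and Tbc1d25 on the other side 0.03 ± 0.0798. Suv39h1, which encodes a histone methyltransferase, had 0.08 ± 0.0563, Ftsj1, a tRNA methyltransferase gene, -0.05 ± 0.0545, and Ebp, an enzyme of cholesterol synthesis, -0.16 ± 0.0666 (adjusted p = 0.408, edgeR). Porcn, whose product modifies Wnt ligands, had -0.30 ± 0.281 and the pseudogene Rpl22-ps1 -0.45 ± 0.273 at 1.19 CPM with UK14304 (adjusted p = 0.682 and 0.52, edgeR), and Rbm3os is given above. All 11 neighbours of Cirbp were tested and 0 passed, with values of -0.24 to 0.05 and 1 of 11 above 0. These were Sbno2, Stk11, Cbarp, Atp5d, Midn, 1600002K03Rik, Efna2, Mum1, Ndufs7, Gamt and Dazap1. Midn, 7617 bases away, had -0.07 ± 0.0649, and 1600002K03Rik, which begins 158 bases after Cirbp, 0.05 ± 0.113.

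The libraries of a group also varied, and the genes that followed each member most closely were ranked among 9279 genes of at least 10 CPM by Pearson's r of log2 CPM over the 18 libraries, with group means removed. For Rbm3 these were Galnt12 (r = 0.906), Ccser1 (0.896), Tns3 (0.88), Fam102b (0.876) and Rbbp5 (0.874), where the 95th percentile of all r was 0.633. None of the 5 shared the UK14304 difference of Rbm3: their log2 fold changes were -0.05, 0.00, 0.10, 0.02 and 0.01, with adjusted p of 0.542 or more in edgeR. With group means left in, Galnt12 had r = 0.396 with Rbm3. For Cirbp they were Gemin5 (r = 0.895), 2410002F23Rik (0.892), Pola2 (0.892), Ewsr1 (0.884) and Tcf19 (0.881), and with group means left in these had r of 0.739 to 0.831. Libraries of the same replicate number tended to deviate together, and the largest of so many r are high by selection.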

How the data were processed

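Poly(A) RNA libraries (KAPA mRNA HyperPrep) of 18 mouse small intestinal organoid samples had been sequenced as single reads of 50 bases on a HiSeq4000. The authors mapped them with STAR 2.7.3 to GRCm38 and counted reads on exons per gene, and the deposited table holds these raw counts for 55487 genes and each gene's merged exon length. The methods name Subread 1.6.4, and per the file headers featureCounts 2.0.1 was run with Ensembl 102, without strand and without reads that map to several places or genes. All 18 count columns were matched to samples by name (0 unused). Symbols were found for 55141 identifiers.

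The counts were analysed with edgeR 4.0.16 in R 4.3.3 (TMM, filterByExpr by group, robust quasi-likelihood fit of the 4 groups over all 18 samples, Benjamini-Hochberg adjustment over 15247 genes). CPM are TMM-scaled, and log2 CPM used a prior count of 2. The members and the gene lists were chosen with earlier results of these data known. Besides the members, genes were named if a list gene passed with or without the block or in an alternative fit. They were also named if among the 3 largest UK14304 changes of a list, within 100 kb, a near copy, or among the 5 most alike in pattern. Other list genes named (Rbmx, Clk1, Clk4, Hspa1b, Sp1, Cry1, Cry2, Per1, Per3, Nr1d1, Bhlhe40, Arntl) and the markers were chosen after their values were seen. Same-numbered samples deviated together from their group means over genes, at r of 0.119 to 0.431 for the 4 pairs of norepinephrine and HCl and 0.155 to 0.52 for the 4 pairs of UK14304 and DMSO, so the replicate number is used as a block beside the fit without it. No 2 samples of a group agreed within counting noise (chi-square per degree of freedom 7.24 or more).

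The fits were tested on simulated data for UK14304 against DMSO. With replicate differences simulated, the fit without the block called 55% of changes of 0.5 log2 units, and the fit with it 100%. With no such differences, the values were 97% and 96%. The size of the simulated replicate differences was set and not estimated from these data. Near copies were searched with blastn 2.17.0, and GC content came from the longest GENCODE M21 transcript of each gene (99.9% of tested genes). Alternatives are DESeq2's size factors, no filter, the block alone, with GC trend removal (lowess, span 0.3) or with a ribosomal RNA term, single comparisons, DESeq2 1.42.0, each sample left out, and, chosen after seeing the data, only libraries of at most 1% ribosomal RNA. Intervals of counts cover counting error only.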

Additional observations from a re-analysis of the deposited data

Results flagged for a closer look

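In 2 of 20 groups of 4 or 5 libraries examined (Rbm3, Cirbp, their ratio, Dbp and Tef in each group), 1 library stood farther from the rest than Dixon's 95% limit, which chance exceeds in about 1 group of 20. Rbm3 was at 46.3 CPM in norepinephrine replicate 3, against 39.3 to 40.7 CPM in the other 4, and replicate 3 was also the highest Rbm3 library of the other 3 groups. Without that library, the norepinephrine log2 fold change of Rbm3 was -0.09 in place of -0.05. Tef was at 54.7 CPM in DMSO replicate 4, against 56.9 to 57 CPM in the other 3, and this library is the one DMSO library with a low ribosomal RNA share.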

How the results depend on the processing

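The log2 fold changes of Rbm3 and Cirbp moved by less than 1 within-group SD (0.0819 and 0.0907 on the log2 scale) under every alternative run, except the difference between the agonist effects of Cirbp, which was -0.07 with only the libraries of at most 1% ribosomal RNA. Rbm3 with UK14304 ranged from -0.51 (replicate block with the GC trend removed) to -0.40, and from -0.47 to -0.39 with single samples left out, where UK replicate 3 gave the lowest and DMSO replicate 3 the highest value. With only UK14304 and DMSO samples in the fit, Rbm3 was not among the genes called without the replicate block (-0.43, SE 0.0608) and was among them with it (-0.43, SE 0.049). It was not called with only the low-share libraries, which leave 1 DMSO sample.

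Counts of called genes depended on the model. For norepinephrine, 16 passed with the replicate block, 31 with the GC trend removed as well, 16 with the ribosomal RNA term, 15 with the block and only its own vehicle, and 34 in DESeq2 with the block. For UK14304 the 6 became 22 without a filter, 186 with the replicate block, 626 with the GC trend removed as well, 78 with the ribosomal RNA term, 1 with only its own vehicle, 525 with the block as well, 46 in DESeq2, 272 in DESeq2 with the block and 0 in the low-share libraries. The list genes called for UK14304 are given beside the count over all tested genes (of 15247 unless stated). They were 2 without a filter (22 of 33375), with the block (186) and in DESeq2 (46), Dbp and Tef each time. With the ribosomal RNA term, only Tef was called (78). With the GC trend removed, 7 were called (626): Clk1, Srsf4, Dbp, Per1, Tert, Hif1a and Tef. With the block and only its own vehicle, 11 were called (525 of 14803). These were Hspd1, Srsf6, Dnaja1, Dbp, Chordc1, Hnrnph1, Per1, Nr1d1, Hif1a, Tef and Tra2b. DESeq2 with the block called 3 (272): Dbp, Per1 and Tef. With single samples left out, the counts for UK14304 were 2 to 11 genes and 0 to 2 list genes. The count fell to 2 without DMSO replicate 1 or 4 and 3 without DMSO replicate 2 or 3, and rose to 11 without NE replicate 4. Dbp and Tef were called without NE replicate 4 or UK replicate 5, and also without a filter on low counts. For the difference between the effects, DESeq2 with the block called 1. In edgeR's fit of all samples, the replicate block changed no direction or call of Rbm3 or Cirbp. In DESeq2 it added the call of Rbm3 in the difference between the agonist effects. The cause of these moves was not tested. Depth limits the low genes, such as Dbp at 96 to 201 and Rbm3os at 6 to 23 counts per library.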
